A study of Homo sapiens with 4 samples.

Results

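The cyclins and cyclin-dependent kinases (CDKs) of 2 cell lines were described before and after chemotherapy. The members were taken by gene symbol, as *CCN* followed by a letter and at most 1 digit or as *CDK* followed by digits, which gave 43 of 18449 genes, 25 cyclins and 18 kinases. BT-16 and CHLA-266 are established lines of atypical teratoid/rhabdoid tumor (AT/RT) that the labels assign to the MYC subgroup. Treated cells had received 1 µM doxorubicin, 5 µM etoposide and 1 µM vincristine in that order on 3 consecutive days, and their RNA was taken after the surviving cells had grown again, while the untreated cells had received none of these drugs. Doxorubicin and etoposide poison topoisomerase II, and vincristine blocks the assembly of microtubules. From each line came 1 library per condition, with 2 libraries per condition and the lines as its replicates, so that no test of a different response of the lines was possible. All treated cells received all 3 drugs, so the effects of the single drugs cannot be told apart.

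A CDK is a protein kinase, and most CDKs are active only when a cyclin binds them. In the cell cycle, D cyclins with CDK4 or CDK6 act in G1, E cyclins with CDK2 at entry into S phase, A cyclins with CDK2 or CDK1 in S and G2 phase, and B cyclins with CDK1 in mitosis. Other pairs act on RNA polymerase II and its partners: cyclin H with CDK7 in the factor TFIIH, cyclin C with CDK8 or CDK19 in the Mediator complex, T cyclins with CDK9 in the elongation factor P-TEFb, and cyclin K with CDK12 or CDK13. The members were therefore divided into 15 with a cell cycle role, 13 with a transcriptional role, and 15 others. *CCNB3*, a further cell cycle cyclin, was not analysed here.

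Total counts were 75087193 and 66192504 in untreated and 51489712 and 49849257 in treated BT-16 and CHLA-266 cells, while more genes were detected after treatment in both lines (17815 and 17114 after 16079 and 15464). All 43 members were among the 18066 genes with a nonzero total, which were tested with the quasi-likelihood test of edgeR after TMM normalization (a scaling of libraries by their shared genes), with a threshold of 0.05 on the adjusted p value. These p values measure the spread between the 2 lines, since no repeated culture of a line was analysed here. At least 10 counts in every library were found for 38 members. As markers of AT/RT-MYC, *MYC* had 6804 to 14275 and *HOXC9* 133 to 330 counts, while *HOXC10* had 8 to 49 and *HOXB9* 12 and 8 counts in untreated and 202 and 88 counts in treated cells. *MYC* was lower after treatment (log2 fold change, -0.59, edgeR adjusted p = 0.0289), whereas *HOXB9* and, among markers of the other AT/RT subgroups, *MITF* and *MYCN* were higher (edgeR adjusted p = 0.00411, 0.0163 and 0.0305). *SMARCB1*, whose protein is lost in these tumors, had 827 to 1394 counts per library and was thus not absent at the RNA level. The 6 immune cell markers summed to 202 to 504 counts per library, with *CD68* at 0 to 3, *PTPRC* at 30 to 287 and *CSF1R* at 98 to 261 counts. *AIF1*, another of them, had 0 counts in both untreated and 27 and 55 counts in treated libraries and was called higher (edgeR adjusted p = 0.0132), and its part in the results was not tested.

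Cell cycle members were mostly lower after treatment, whereas transcriptional members stayed within a narrow range. Of 43 members, 16 were lower and 6 higher after treatment (edgeR, adjusted p under 0.05), where 19.1% and 16.1% of all genes tested were lower and higher and 35.2% were called in either direction. With a block for the cell line in the model, which compares the libraries within each line, 18 members were lower and 6 higher, beside 23.7% and 17.9% of all genes and 41.6% in either direction. Among the 15 cell cycle members, 9 were lower and 2 higher, and among the 13 transcriptional members 3 were lower and 1 higher. The median log2 fold change was -1.51 for cell cycle members (range, -5.31 to 4.72) and -0.27 for transcriptional members (range, -0.68 to 0.74), beside a median of 0.24 over all genes tested. A change of more than 1 on the log2 scale in either direction was estimated for 10 of 15 cell cycle members and for 0 of 13 transcriptional members, beside 47.4% of all genes tested. This share and the median of 0.24 include genes with few counts. At least 10 counts in every library were found for all 13 transcriptional and 12 of 15 cell cycle members. In a fit of the 12620 genes with that minimum, the median was 0.0052 over all genes. It was -3.19 for cell cycle and -0.0887 for transcriptional members in that fit. Within BT-16 the median log2 ratio of treated to untreated cells was -1.28 and -0.16 for the 2 roles, and within CHLA-266 it was -1.69 and -0.30. In a sum of counts per kilobase of exon, which allows levels of different genes to be added within a library, the 15 cell cycle members exceeded the 13 transcriptional members 3.16-fold and 2.84-fold in untreated BT-16 and CHLA-266 cells, and 1.11-fold and 1.07-fold in treated cells. By the median member the order reversed. It was 1683 and 1408 for cell cycle against 553 and 658 for transcriptional members in untreated cells, and 61.4 and 106 against 438 and 452 in treated cells. The small differences of the transcriptional members depended on the scaling between libraries. In upper-quartile normalization, another scaling, the median of all genes moved to 0.59 and that of the transcriptional members to 0.08, above 0, with 3 of them higher and 0 lower, as with library totals alone. In both of these scalings 9 cell cycle members were lower and 2 higher, and of all members 11 and 12 were lower and 9 higher. Of the 18066 genes tested, 1895 were lower and 4361 higher in upper-quartile normalization, and 2353 lower and 3678 higher with library totals. The dividing cell markers *MKI67* and *PCNA* moved with the cell cycle members, with log2 fold changes of -6.03 (SE 0.22, edgeR adjusted p = 1.92e-06) and -2.35 (SE 0.21, edgeR adjusted p = 9.85e-05). In bulk RNA, fewer cells that transcribe a gene and less of its RNA per cell cannot be told apart, and the part of fewer dividing cells was not tested.

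**Figure D1:**
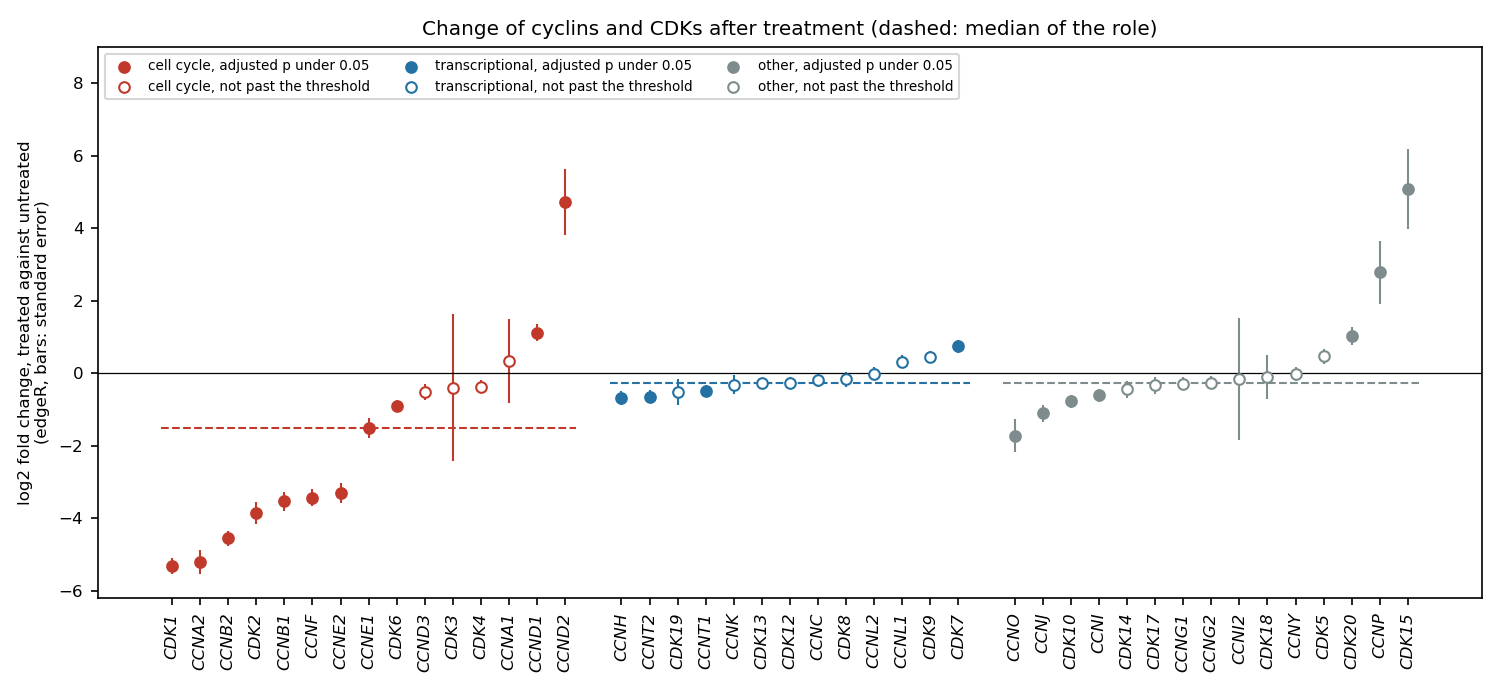
Log2 fold change of each of the 43 members between treated and untreated libraries (y axis, edgeR, with the standard error as bars), by role and in order of size. Filled points passed an adjusted p of 0.05, and dashed lines mark the median of each role, -1.51 for cell cycle, -0.27 for transcriptional and -0.27 for other members; the 7 points under -3 are all cell cycle members.

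The 3 lowest log2 fold changes belonged to members that act from S phase to mitosis, *CDK1*, *CCNA2* and *CCNB2*. *CDK1*, the kinase of mitosis (ENSG00000170312, chr10:60778331-60794852, hg38), had 137 and 154 CPM (counts per 1e+06 counts, after TMM normalization) in untreated BT-16 and CHLA-266 cells and 4.15 and 3.16 CPM in treated cells. It was 39.7-fold lower after treatment, with a log2 fold change of -5.31 (SE 0.22, edgeR adjusted p = 1.92e-06). *CCNA2*, the cyclin A of dividing somatic cells (ENSG00000145386, chr4:121816444-121823883), went from 152 and 163 CPM to 2.80 and 5.79 CPM. Its log2 fold change was -5.20 (SE 0.33, edgeR adjusted p = 1.41e-05), and -5.80 without the treated CHLA-266 library. For both genes every treated library lay far below every untreated one.

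The mitotic B cyclins differed in size of change. *CCNB1* (ENSG00000134057, chr5:69167135-69178245), which binds CDK1 and drives entry into mitosis, had 276 and 296 CPM in untreated and 30.8 and 18.6 CPM in treated BT-16 and CHLA-266 cells. It fell 11.6-fold (log2 fold change, -3.53, SE 0.25, edgeR adjusted p = 2.84e-05), and by counts per kilobase it went from rank 1 of 43 members in both untreated libraries to ranks 13 and 17 in the treated ones. *CCNB2* (ENSG00000157456, chr15:59105126-59125045) had 132 and 111 CPM in untreated and 4.67 and 5.64 CPM in treated cells, which was 23.5-fold lower (log2 fold change, -4.55, SE 0.20, edgeR adjusted p = 2.33e-06). In BT-16 the share of *CCNB2* among both B cyclins, by counts per kilobase, went from 29.6% to 11.8%, whereas in CHLA-266 it went from 24.8% to 21.1%. *CCNF*, which recruits substrates to a ubiquitin ligase and binds no CDK (ENSG00000162063, chr16:2429394-2458854), had 46.7 and 45.4 CPM before and 3.68 and 4.87 CPM after treatment (log2 fold change, -3.43, SE 0.23, edgeR adjusted p = 1.86e-05). *CCNA1*, the cyclin A of the germ line, was low throughout, with 34 counts before and 46 counts after treatment of BT-16 and 16 counts before and 8 counts after treatment of CHLA-266. Its fitted difference of 0.33 did not pass the test (SE 1.16, edgeR adjusted p = 0.832).

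Promoters of mitotic genes are known for CCAAT boxes, which bind NF-Y, and for the cell cycle genes homology region (CHR), which binds the DREAM and MuvB complexes. The RefSeq windows from 250 bases before to 50 bases after a start site (GRCh38.p14) were searched on both strands for CCAAT and for TTTGAA or TTTAAA as letters of a CHR, and matched 39 of 43 members by symbol. The 130 bases before the start site are shown for 4 members that were lower after treatment and hold CCAAT letters. They are also shown for *CDK4* and *CDK9*, which were not called and whose windows hold neither motif. These are picked examples: uncalled *CCNC* and *CCND3* also hold CCAAT letters, and *CDK6*, which was lower, holds neither motif. Capitals mark CCAAT or its reverse complement ATTGG, and TTTGAA or TTTAAA or their reverse complements.
CCNB1 (chr5:69167020-69167149, plus strand): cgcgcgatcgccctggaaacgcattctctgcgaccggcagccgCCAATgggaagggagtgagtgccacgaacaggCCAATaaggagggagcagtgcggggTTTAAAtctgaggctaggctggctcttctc
CCNB2 (chr15:59105016-59105145, plus strand): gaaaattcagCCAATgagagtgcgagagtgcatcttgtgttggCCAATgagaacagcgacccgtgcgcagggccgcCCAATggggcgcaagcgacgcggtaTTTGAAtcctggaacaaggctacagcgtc
CCNF (chr16:2429317-2429446, plus strand): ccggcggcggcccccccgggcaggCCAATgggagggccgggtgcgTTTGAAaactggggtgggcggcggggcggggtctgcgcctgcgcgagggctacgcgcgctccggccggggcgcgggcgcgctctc
CCNA2 (chr4:121823884-121824013, minus strand): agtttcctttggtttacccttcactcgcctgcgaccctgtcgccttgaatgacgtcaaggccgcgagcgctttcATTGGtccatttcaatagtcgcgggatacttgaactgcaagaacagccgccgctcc
CDK4 (chr12:57752311-57752440, minus strand): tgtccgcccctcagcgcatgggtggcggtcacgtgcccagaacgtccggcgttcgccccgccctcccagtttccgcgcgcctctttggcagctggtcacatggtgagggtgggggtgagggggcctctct
CDK9 (chr9:127785904-127786033, plus strand): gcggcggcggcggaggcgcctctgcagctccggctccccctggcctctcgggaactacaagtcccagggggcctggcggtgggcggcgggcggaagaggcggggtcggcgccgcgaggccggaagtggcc

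In the *CCNB1* window the CCAAT letters began 87 and 55 bases before the start site and the CHR letters 30 bases before it. In the *CCNB2* window they began 87 and 54 bases before the start, among others, and the CHR letters 193 and 29 bases before it. By the letters searched, both motifs were present in the windows of *CCNB1*, *CCNB2*, *CCNF* and *CDK1*, which are 4 of the 11 cell cycle members with a window. A CHR with letters other than TTTGAA or TTTAAA would be missed, so a window without a match, as that of *CCNA2*, may still hold one. Both motifs were present in 2 of 13 transcriptional members (*CCNC* and *CDK19*), in 1 of 15 other members (*CDK15*), and in 11.2% of 27305 genes. A pair of CCAAT letters 31 to 34 bases apart, a spacing chosen after these windows were seen, was found for *CCNB1*, *CCNB2* and *CDK1* among the members, and for 1.57% of all genes. CCAAT was held by 6 of 11 cell cycle, 6 of 13 transcriptional and 4 of 15 other members, beside 39.7% of all genes. The CHR letters were held by 5, 5 and 4 of these members, beside 27.9% of all genes. These short words were thus common, and a match is no binding site by itself. The letters of an E2F site (TTTCCCGC, TTTGGCGC, TTTCGCGC or TTTGCCGC, on either strand) were found for *CDK1*, *CDK19*, *CCNO* and *CDK10*, and for 3.99% of all genes.

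At the entry into S phase, both E cyclins and their kinase were lower. *CDK2* (ENSG00000123374, chr12:55966781-55972789) had 30.9 and 26.2 CPM in untreated BT-16 and CHLA-266 cells and 1.56 and 2.39 CPM in treated cells. It was 14.5-fold lower (log2 fold change, -3.86, SE 0.30, edgeR adjusted p = 4.82e-05). *CCNE2* (ENSG00000175305) had 25.6 and 34.7 CPM before and 2.65 and 3.46 CPM after treatment (log2 fold change, -3.30, SE 0.28, edgeR adjusted p = 8.19e-05), and 37.0% of its exon bases overlap *INTS8* on the opposite strand. *CCNE1*, its paralog (ENSG00000105173, chr19:29811991-29824312), fell less, from 19.6 and 30.2 CPM to 8.08 and 9.33 CPM (log2 fold change, -1.51, SE 0.27, edgeR adjusted p = 0.00385). The share of *CCNE1* among both E cyclins, by counts per kilobase, thus went from 57.8% to 84.5% in BT-16 and from 60.9% to 82.8% in CHLA-266. *CDK3*, a little studied relative of CDK2, had 4 to 10 counts per library, with a fitted log2 fold change of -0.40 (SE 2.02, edgeR adjusted p = 0.886), and 91.4% of its exon bases are shared with the readthrough gene *TEN1-CDK3*.

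Among the D cyclins and their kinases of G1 phase, *CCND1* and *CCND2* were higher and *CDK6* lower after treatment. *CCND1* (ENSG00000110092, chr11:69641156-69654474), the D cyclin that growth factor signals induce, had 123 and 134 CPM in untreated BT-16 and CHLA-266 cells and 214 and 344 CPM in treated cells. It was 2.17-fold higher after treatment (log2 fold change, 1.12, SE 0.23, edgeR adjusted p = 0.00698), and its counts per kilobase went from rank 9 in both untreated libraries to ranks 2 and 1 in the treated ones. *CCND2* had 4 counts in each untreated library and 66 and 114 counts in treated BT-16 and CHLA-266 cells (log2 fold change, 4.72, SE 0.91, edgeR adjusted p = 0.00546). Without the treated CHLA-266 library the adjusted p of *CCND2* in edgeR was 0.0565. The level of *CCND2* stayed low: 388 olfactory receptor genes, which these cells need not express, were used as a background, and *CCND2* lay below their 95th percentile of counts per kilobase in all 4 libraries. That percentile was itself higher after treatment, at 26.2 and 21.1 in treated BT-16 and CHLA-266 cells after 4.10 and 3.61 in untreated ones, and its part in the change of low genes was not tested. In treated BT-16 cells *CDK2* lay below it as well.

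*CCND3* did not pass the test, at 222 and 220 CPM in untreated and 190 and 118 CPM in treated BT-16 and CHLA-266 cells (log2 fold change, -0.52, SE 0.23, edgeR adjusted p = 0.103). Under the block by cell line it was lower (log2 fold change, -0.56, edgeR adjusted p = 0.00525), as it was without the treated BT-16 library (log2 fold change, -0.90, edgeR adjusted p = 0.000675). *CDK6* (ENSG00000105810, chr7:92604921-92836573) was 1.88-fold lower, with 299 and 280 CPM before and 150 and 158 CPM after treatment (log2 fold change, -0.91, SE 0.16, edgeR adjusted p = 0.00327). For *CDK4*, its partner in G1 phase, 162 and 118 CPM stood against 110 and 107 CPM, a difference that did not pass the test (log2 fold change, -0.37, SE 0.19, edgeR adjusted p = 0.152). Of the exon bases of *CDK4*, 44.2% overlap *TSPAN31* on the opposite strand, and the strand setting of the counting was not given in the sources used here.

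**Figure D2:**
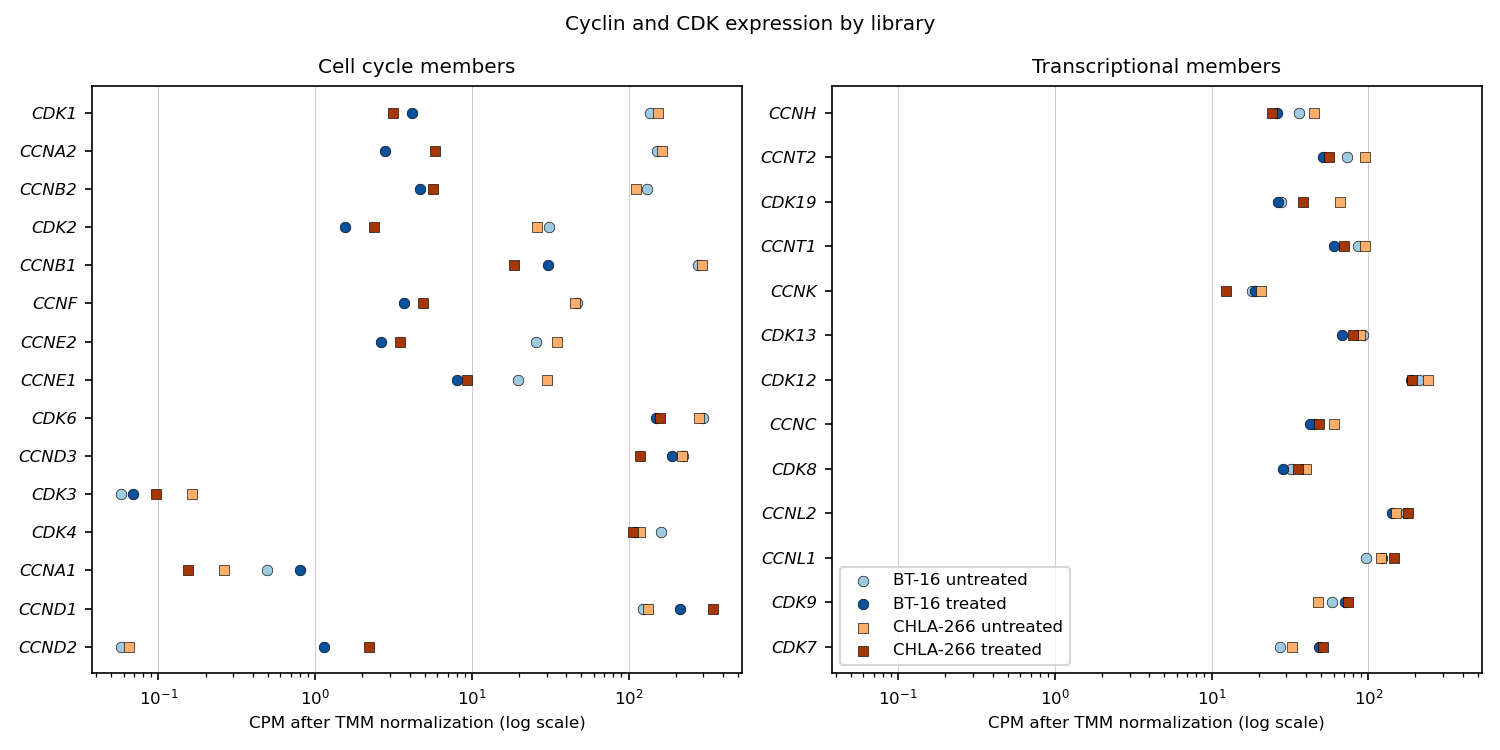
CPM after TMM normalization (x axis, log scale) of the 15 cell cycle members (left) and the 13 transcriptional members (right) in each of the 4 libraries, circles for BT-16 and squares for CHLA-266. *CDK1* lies at 137 and 154 CPM in the untreated and at 4.15 and 3.16 CPM in the treated libraries, while the 4 points of most transcriptional members lie close together.

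The makeup of the cyclin and kinase pools within a library, which does not depend on the scaling between libraries, differed between conditions in the same direction in both lines. D cyclins made up 21.3% and 21.1% of the summed counts per kilobase of cyclins A, B, D, E and F in untreated BT-16 and CHLA-266 cells and 79.5% and 84.4% in treated cells. B cyclins went from 53.4% to 14.6% and from 51.4% to 8.80%, and A cyclins from 18.4% to 1.40% and from 18.9% to 1.97%. E cyclins went from 4.55% to 3.95% and from 6.40% to 4.15%, and cyclin F from 2.45% to 0.594% and from 2.28% to 0.700%. Among the D cyclins, the share of *CCND1* went from 40.2% to 57.5% in BT-16 and from 42.3% to 77.7% in CHLA-266, and that of *CCND3* from 59.8% to 42.3% and from 57.7% to 22.0%. Among *CDK1*, *CDK2*, *CDK4* and *CDK6*, the share of *CDK4* went from 43.7% to 72.1% and from 35.7% to 70.8%, while that of *CDK1* went from 29.3% to 2.16% and from 36.7% to 1.65%. These shares are of RNA per kilobase of all annotated exons, with 1 library behind each, and are given without a test.

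**Figure D3:**
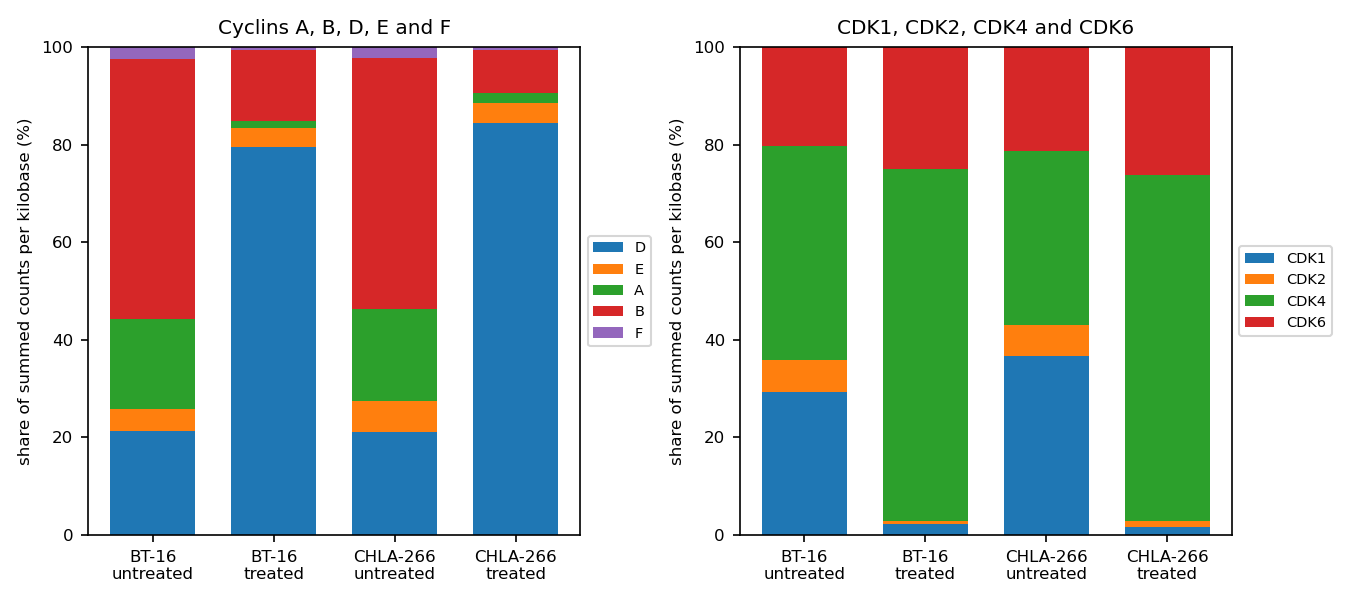
Share of each cyclin class (left) and of 4 cell cycle kinases (right) in the summed counts per kilobase of exon of a library (y axis, percent), with 1 bar per library. D cyclins take 21.3% and 21.1% of the cyclin sum before and 79.5% and 84.4% after treatment, and *CDK4* 43.7% and 35.7% of the kinase sum before and 72.1% and 70.8% after.

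In TFIIH, kinase and cyclin moved in opposite directions. *CDK7* (ENSG00000134058, chr5:69234795-69277430), which phosphorylates both RNA polymerase II and the cell cycle CDKs, had 27.3 and 32.7 CPM in untreated and 48.6 and 51.7 CPM in treated BT-16 and CHLA-266 cells. It was 1.67-fold higher (log2 fold change, 0.74, SE 0.18, edgeR adjusted p = 0.0129), and without the untreated BT-16 library its adjusted p in edgeR was 0.0804. *CCNH*, its cyclin (ENSG00000134480, chr5:87318416-87412930), had 35.9 and 45.3 CPM before and 26.2 and 24.5 CPM after treatment and was 1.60-fold lower (log2 fold change, -0.68, SE 0.19, edgeR adjusted p = 0.0255). The call of *CCNH* was lost without the untreated CHLA-266 library (log2 fold change, -0.50) and in upper-quartile normalization (edgeR adjusted p = 0.207). With all libraries *CCNH* passed in 6 of 10 alternative settings. The log2 ratio of *CDK7* to *CCNH*, in counts per kilobase, went from 0.91 to 2.199 in BT-16 and from 0.84 to 2.39 in CHLA-266. For *MNAT1*, which assembles this pair, the log2 fold change was -0.09 (SE 0.18, edgeR adjusted p = 0.693).

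In P-TEFb, which releases paused RNA polymerase II, the T cyclins were lower than in untreated cells. *CCNT2* (ENSG00000082258, chr2:134918235-134959342) had 72.9 and 95.5 CPM in untreated and 51.5 and 56.2 CPM in treated BT-16 and CHLA-266 cells (log2 fold change, -0.64, SE 0.18, edgeR adjusted p = 0.0246). The call of *CCNT2* was lost without the untreated CHLA-266 library (log2 fold change, -0.44) and in upper-quartile normalization (edgeR adjusted p = 0.211). With all libraries *CCNT2* passed in 6 of 10 alternative settings. *CCNT1* had 86.3 and 95.3 CPM before and 60.2 and 70.0 CPM after treatment, close to the threshold (log2 fold change, -0.48, SE 0.16, edgeR adjusted p = 0.0487). Its adjusted p in edgeR was 0.0871, 0.216 and 0.202 without the untreated BT-16, the treated BT-16 and the untreated CHLA-266 library, and with all libraries it passed in 2 of 10 alternative settings. *CDK9*, their kinase, had 58.6 and 47.4 CPM before and 71.1 and 74.4 CPM after treatment and did not pass the test (log2 fold change, 0.46, SE 0.17, edgeR adjusted p = 0.0635). In the fit with the block *CDK9* was higher (edgeR adjusted p = 0.0174), as in 8 of 10 alternative settings in all. In counts per kilobase, the log2 ratio of *CDK9* to *CCNT1* went from 0.74 to 1.53 in BT-16 and from 0.29 to 1.38 in CHLA-266.

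No cyclin or kinase of Mediator passed the test. *CCNC* had 44.8 and 60.0 CPM before and 42.5 and 48.8 CPM after treatment (log2 fold change, -0.20, SE 0.19, edgeR adjusted p = 0.428). *CDK8* had 32.0 and 40.0 CPM before and 28.7 and 35.4 CPM after (log2 fold change, -0.17, SE 0.20, edgeR adjusted p = 0.524). Its paralog *CDK19* had 27.8 CPM in untreated and 26.6 CPM in treated BT-16 cells, and 65.9 and 38.5 CPM in CHLA-266 cells (log2 fold change, -0.52, SE 0.36, edgeR adjusted p = 0.276). The untreated CHLA-266 library was the highest of the 4. Without it the log2 fold change of *CDK19* was 0.23, above 0, whereas without the untreated BT-16 or the treated CHLA-266 library *CDK19* was lower after treatment (log2 fold change, -1.02 and -0.81, edgeR adjusted p = 0.0201 and 0.0192). The log2 ratio of *CDK8* to *CCNC*, in counts per kilobase, was -0.24 and -0.34 in untreated and -0.32 and -0.22 in treated BT-16 and CHLA-266 cells, so it differed less between conditions than that of *CDK7* to *CCNH*.

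The kinases that keep RNA polymerase II elongating also did not pass the test. *CDK12* had 211 and 242 CPM before and 186 and 189 CPM after treatment (log2 fold change, -0.27, SE 0.16, edgeR adjusted p = 0.215), and *CDK13* had 92.2 and 88.0 CPM before and 68.3 and 80.0 CPM after (log2 fold change, -0.28, SE 0.16, edgeR adjusted p = 0.197). *CCNK*, their cyclin, had 18.2 and 20.7 CPM before and 18.9 and 12.3 CPM after treatment (log2 fold change, -0.32, SE 0.26, edgeR adjusted p = 0.355). Of its exon bases, 59.5% overlap *CCDC85C* on the opposite strand. The L cyclins, which partner CDK11 and act in splicing, had fitted log2 fold changes of 0.32 for *CCNL1* (SE 0.18, edgeR adjusted p = 0.193) and -0.02 for *CCNL2* (SE 0.18, edgeR adjusted p = 0.941). *CCNL1* had 96.0 and 120 CPM before and 123 and 147 CPM after treatment, without overlap of the conditions. *CCNL2* had 175 and 151 CPM before and 141 and 180 CPM after.

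**Figure D4:**
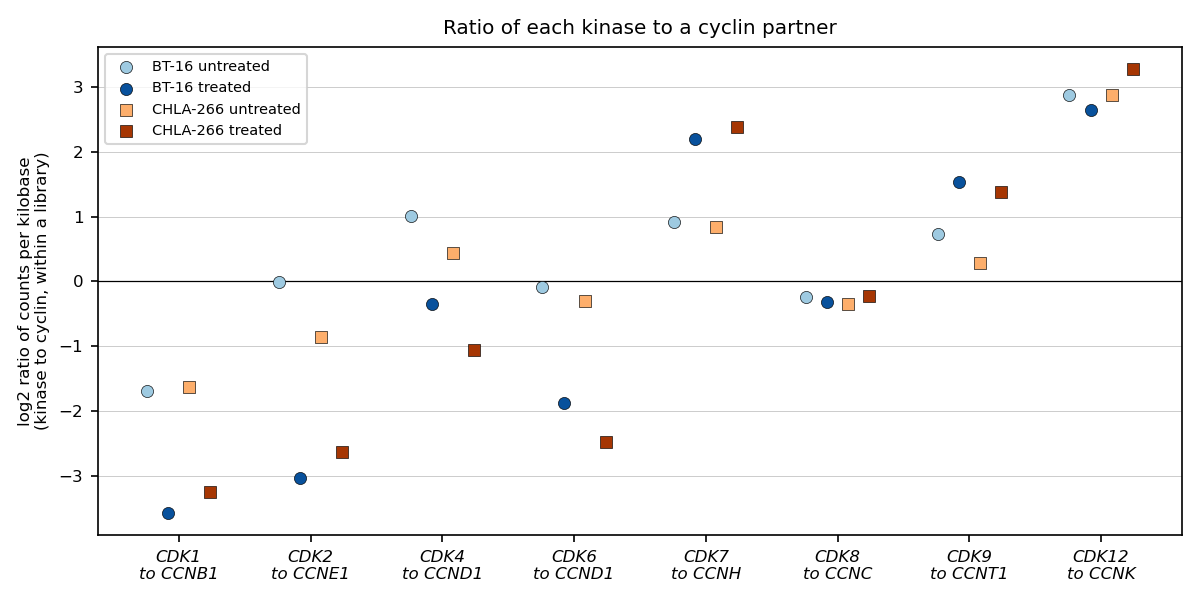
Log2 ratio of a kinase to a cyclin partner in counts per kilobase of exon (y axis) for 8 pairs (x axis) in each of the 4 libraries. The ratio of *CDK7* to *CCNH* goes from 0.91 and 0.84 before to 2.199 and 2.39 after treatment, whereas that of *CDK8* to *CCNC* lies between -0.34 and -0.22 in all 4 libraries.

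Of the 15 members with neither role, 4 were lower and 3 higher after treatment (26.7% and 20.0%, beside 19.1% and 16.1% of all genes), and their median log2 fold change was -0.27. *CCNO*, a cyclin of multiciliated cells, was the lowest, with 10.6 and 4.97 CPM in untreated and 2.72 and 2.001 CPM in treated BT-16 and CHLA-266 cells (log2 fold change, -1.72, SE 0.45, edgeR adjusted p = 0.0192). Without the untreated BT-16 library, the highest of the 4, its log2 fold change was -1.07 (edgeR adjusted p = 0.141). *CCNJ* had 18.6 and 24.1 CPM before and 10.2 and 9.62 CPM after treatment (log2 fold change, -1.10, SE 0.24, edgeR adjusted p = 0.00905), and lost its call without the untreated CHLA-266 library (edgeR adjusted p = 0.0649). *CDK10*, the partner of cyclin M, had 50.8 and 42.9 CPM before and 26.2 and 28.9 CPM after (log2 fold change, -0.77, SE 0.18, edgeR adjusted p = 0.0124). *CCNI* had 229 and 180 CPM before and 129 and 140 CPM after (log2 fold change, -0.60, SE 0.18, edgeR adjusted p = 0.0287). Leaving out the untreated BT-16 library ended the calls of *CDK10* and *CCNI* (edgeR adjusted p = 0.0813 and 0.182), and leaving out the treated one ended that of *CCNI* (edgeR adjusted p = 0.0537). Neither was called in upper-quartile normalization (edgeR adjusted p = 0.0891 for *CDK10* and 0.242 for *CCNI*). With all libraries *CDK10* passed in 9 and *CCNI* in 6 of 10 alternative settings.

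*CDK20*, a kinase of the primary cilium, rose from 9.74 and 7.89 CPM to 17.7 and 18.0 CPM (log2 fold change, 1.02, SE 0.24, edgeR adjusted p = 0.0136), with an adjusted p of 0.0738 in edgeR without the untreated CHLA-266 library. The other members called higher were scarce. *CDK15*, the only member with at most 3 counts in both untreated libraries, had 2 counts in each of them and 48 and 72 counts in treated BT-16 and CHLA-266 cells. Its mean CPM in treated cells was 24.03-fold a floor of 3 counts per library (19.09-fold in BT-16 and 28.43-fold in CHLA-266), a ratio that depends on this floor. It passed the test (log2 fold change, 5.08, SE 1.12, edgeR adjusted p = 0.00930). Without the treated CHLA-266 library its log2 fold change was 4.68, and its call was lost. *CCNP* had 14 and 12 counts before and 114 and 41 counts after treatment (log2 fold change, 2.78, SE 0.87, edgeR adjusted p = 0.0373). Under the block the adjusted p of *CCNP* in edgeR was 0.0589, and without the treated BT-16 library its log2 fold change was 1.98 (edgeR adjusted p = 0.346). Without the untreated BT-16 or CHLA-266 library it was 2.81 or 2.75 (edgeR adjusted p = 0.0822 and 0.0887). By counts per kilobase, *CDK15* lay below the 95th percentile of the olfactory receptors in all 4 libraries, and *CCNP* in treated CHLA-266 cells.

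The remaining 8 members did not pass the test, with fitted log2 fold changes from -0.45 for *CDK14* (SE 0.23, edgeR adjusted p = 0.158) to 0.46 for *CDK5* (SE 0.21, edgeR adjusted p = 0.119). They were *CCNG1*, *CCNG2*, *CCNI2*, *CCNY*, *CDK5*, *CDK14*, *CDK17* and *CDK18*. *CDK5*, the kinase of neurons that binds p35 rather than a cyclin, had 20.9 and 16.3 CPM before and 25.05 and 26.3 CPM after treatment. *CCNG1*, a target of p53, had 246 and 192 CPM before and 174 and 186 CPM after, and its counts per kilobase ranked first or second among the 43 members in every library. *CDK14* had 51.0 and 33.6 CPM before and 33.99 and 28.1 CPM after, and it was under the block just past the threshold (edgeR adjusted p = 0.0499).

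With treatment in the model, 1 of 43 members differed between the cell lines, the same share as the 2.3% of all genes. It was *CDK19*, higher in CHLA-266 (log2 difference, 0.89, SE 0.18, edgeR adjusted p = 0.00362), and the smallest adjusted p of any other member in edgeR was 0.136. When 1 library was left out, this difference lay between 0.53 and 1.27, without a test. Within the lines, the log2 ratio of treated to untreated cells was -5.04 (95% interval, -5.24 to -4.86) in BT-16 and -5.60 (95% interval, -5.84 to -5.38) in CHLA-266 for *CDK1*. For *CCNA2* the ratio was -5.76 (95% interval, -6.00 to -5.54) and -4.81 (95% interval, -4.98 to -4.65), and for *CCNB1* -3.17 (95% interval, -3.24 to -3.10) and -3.99 (95% interval, -4.08 to -3.89). *CCND1* had ratios of 0.80 (95% interval, 0.76 to 0.84) and 1.36 (95% interval, 1.33 to 1.40). These exact intervals cover counting error only, so they hold no spread between cultures, and a difference between the lines was not tested.

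**Figure D5:**
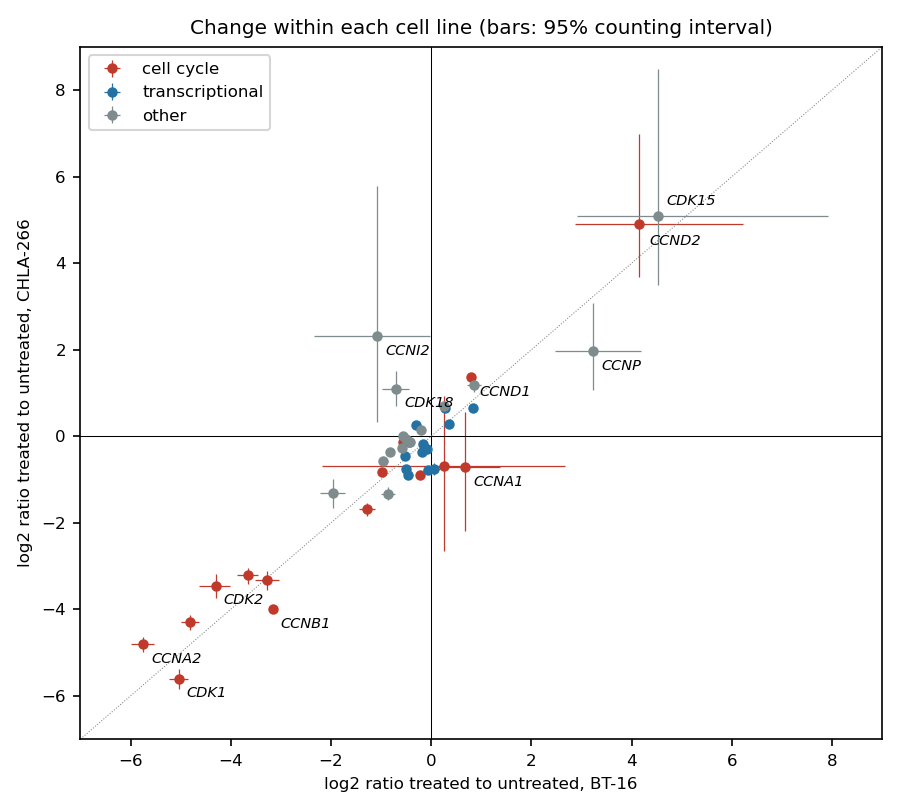
Log2 ratio of treated to untreated cells for the 43 members in BT-16 (x axis) and CHLA-266 (y axis), with 95% intervals of counting error as bars and the line of equal ratios dotted. *CDK1* (-5.04 and -5.60) and *CCNA2* (-5.76 and -4.81) lie at the lower left, *CCND2* and *CDK15* at the upper right with wide intervals, and *CDK18* and *CCNI2* have ratios of opposite sign.

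Of 26 further genes that activate, inhibit, assemble or degrade these complexes, 11 were lower and 3 higher after treatment (edgeR), or 42.3% and 11.5% beside 19.1% and 16.1% of all genes. Their median log2 fold change was -0.50, beside 0.24 for all genes. In upper-quartile normalization and with library totals 6 of 26 were lower, beside 1895 and 2353 of 18066 genes. Under a minimum of 10 counts per library 6 of 25 were lower, beside 2553 of 12620 genes. The lower ones were *CDC25A*, *CDC25C*, *PKMYT1*, *CKS1B*, *CKS2*, *CDC20*, *SKP2*, *FZR1*, *LARP7*, *CDK11B* and *CABLES2*, and the higher ones *CABLES1*, *CDC25B* and *FBXW7*. *CDC25C*, a phosphatase that activates CDK1, had 1747 and 1435 counts in untreated and 44 and 51 counts in treated BT-16 and CHLA-266 cells (log2 fold change, -4.80, SE 0.30, edgeR adjusted p = 1.17e-05). *PKMYT1*, a kinase that inhibits CDK1, had 1938 and 1655 counts before and 156 and 49 counts after treatment (log2 fold change, -3.91, SE 0.45, edgeR adjusted p = 0.000459), and -4.86 on the log2 scale without the treated BT-16 library. *WEE1*, another inhibitor of CDK1, did not pass the test (log2 fold change, 0.10, SE 0.19, edgeR adjusted p = 0.697).

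*CABLES1*, an adaptor between CDKs and the kinases that phosphorylate them, went from 1022 and 1535 counts to 5345 and 11884 counts (log2 fold change, 3.01, SE 0.42, edgeR adjusted p = 0.00111). Without the treated CHLA-266 library its log2 fold change was 2.23. *CDK5R2*, an activator of CDK5, had a larger fitted log2 fold change of 3.79 from few counts (0 and 6 before, 62 and 16 after treatment), which did not pass the test (SE 1.66, edgeR adjusted p = 0.104). *CDC25B*, the paralog of *CDC25C*, had 15064 and 10366 counts before and 19595 and 18024 counts after treatment (log2 fold change, 0.83, SE 0.18, edgeR adjusted p = 0.00903). Its call was lost without the untreated CHLA-266 library (edgeR adjusted p = 0.0689). Leaving out 1 library also ended the calls of *FBXW7* (either untreated library), *CKS2* (untreated BT-16 or treated CHLA-266), *FZR1* (either BT-16 library), *LARP7* and *CABLES2* (any but treated BT-16) and *CDK11B* (any but treated CHLA-266), with adjusted p values in edgeR up to 0.105, 0.0917, 0.237, 0.0999, 0.0938 and 0.175.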

How the data were processed

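RNA was sequenced from 4 libraries, 1 per cell line and condition, prepared with a stranded kit. The authors trimmed reads, aligned them to hg38 with STAR, counted them per gene, and removed genes of the sex chromosomes. The deposited estimated counts are not normalized, and 5 values in 2 genes were rounded. A second deposited table holds variance-stabilized log2 values (VST) by the authors, used in 1 alternative. How read pairs were counted is not given in the sources used here. Among counts from 1 to 20, 20.5% to 34.2% per library were odd, so a fragment may have been counted by each of its reads, which would make counting intervals too narrow.

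Genes with a nonzero total were tested with edgeR 4.0.16 in R 4.3.3 (quasi-likelihood test, TMM factors of 0.919 to 1.12, no block, Benjamini-Hochberg adjustment). Replicates are 2 cell lines, and an exact permutation test of 2 against 2 libraries cannot go below p = 0.333. The libraries of a line are paired by the line itself, and their deviations from the mean of their condition correlated at 0.257 over 12620 genes, which are not independent. Ratios within a line used 0.5 added counts and exact Clopper-Pearson 95% intervals. GENCODE 44 (hg38) gave coordinates and exon lengths. Alternatives were the cell line as a replicate block, DESeq2 1.42.0, other scalings and filters, limma 3.58.1 on VST values, halved counts, *CDK7* and *CCNH* as cell cycle members, and each library left out. The code was tested on simulated data. Members, roles and lists were chosen with earlier results of these data known. All members past the threshold or with either role were named, with the extremes of the rest, and the 2 pathway genes of largest log2 fold change in each direction, both among all and among those past the threshold.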

Additional observations from a re-analysis of the deposited data

Results flagged for a closer look

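For 4 members the treated library lay above the untreated one in one cell line and below it in the other, with counting intervals that both exclude 0. The difference between the lines was not tested, since each line gave 1 library per condition, and all values are log2 ratios of treated to untreated cells. *CDK18*, a little studied kinase of the PCTAIRE group, had a ratio of -0.71 (95% interval, -0.98 to -0.45) in BT-16 and 1.10 (95% interval, 0.71 to 1.51) in CHLA-266, from 351 and 180 counts and from 83 and 151 counts. *CCNI2* had a ratio of -1.08 (95% interval, -2.34 to -0.02) in BT-16 and 2.31 (95% interval, 0.34 to 5.80) in CHLA-266, from 2 to 26 counts per library, but with counts halved, in case both reads of a pair were counted, both intervals included 0 (-2.96 to 0.46 and -0.59 to 8.13), and 36.2% of its exon bases overlap *SEPTIN8* on the opposite strand. *CCNL2*, a cyclin of splicing, had ratios of -0.31 and 0.25, and *CCNY*, a cyclin of the plasma membrane, of -0.21 and 0.14. In upper-quartile normalization the ratios within BT-16 were above 0 for *CCNL2* (0.0928) and *CCNY* (0.19), so that their signs no longer differed between the lines. That scaling raised the ratios within CHLA-266 as well, so a gap between the lines remained, which was not tested.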

How the results depend on the processing

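Across 10 alternatives of model, test, scaling, filter and input, 9 or 10 of the 15 cell cycle members were lower. With the cell line as a replicate block, 6 members were higher and 18 lower, and among transcriptional members 2 were higher, as with DESeq2, DESeq2 size factors, the filter of edgeR and the minimum of 10 counts in every library, while DESeq2 with the block, upper-quartile normalization and library totals called 3. No transcriptional member was lower (0) in upper-quartile normalization, library totals, the minimum of 10 counts or limma, although 3 were in the reported test. The median of the cell cycle members was -1.17 in upper-quartile normalization, -3.19 with the minimum of 10 counts (12 genes, 1 higher), -2.38 with the filter of edgeR, -1.11 in limma, and -0.91 with *CDK7* and *CCNH* added, which left 0 transcriptional members higher. The median of the transcriptional members was 0.0765, -0.0424 and -0.0887 in upper-quartile normalization, library totals and the minimum of 10 counts. Over all genes it was 0.59, 0.46 and 0.0052 in these settings. Other members called lower numbered 2 in upper-quartile normalization, and pathway genes called lower 6 in that scaling, in library totals and with the minimum of 10 counts. Of all genes, 1895 of 18066, 2353 of 18066 and 2553 of 12620 were lower in these settings, in that order, and 4361, 3678 and 2253 were higher. Genes called higher numbered 4072 with DESeq2, 3624 with its block, 3183 with DESeq2 size factors and 3373 with the filter of edgeR. Genes called lower there numbered 3485, 3476, 3128 and 3294, in the same order. In limma 3671 were higher and 2999 lower, and in the reported test 2910 and 3454. The filter of edgeR and limma covered fewer genes. Members that differed between the lines numbered 3 with DESeq2 size factors, 2 in the other scalings and 0 with the minimum of 10 counts. The cause of these shifts was not tested.

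When 1 library was left out, cell cycle members called higher ranged from 1 to 2 and their median from -1.79 to -1.17, transcriptional members called higher from 0 to 1, called lower from 0 to 4 and their median from -0.37 to -0.12, other members called higher from 1 to 2 and called lower from 1 to 4, and pathway genes called lower from 6 to 9. Over all genes tested, fewer were called higher and fewer were called lower in each of these fits than with all libraries. A smaller count of calls was thus not particular to these sets, and whether they lost more calls than other genes was not tested. Log2 fold changes of uncalled members crossed 0, with ranges of -0.96 to 0.50 for *CDK3*, -1.28 to 1.09 for *CCNA1*, -0.39 to 0.0260 for *CCNC*, -0.32 to 0.00170 for *CDK8*, -1.02 to 0.23 for *CDK19*, -0.19 to 0.14 for *CCNL2*, -1.04 to 2.41 for *CCNI2*, -0.27 to 0.21 for *CCNY*, -0.66 to 0.10 for *CDK17* and -0.76 to 1.16 for *CDK18*.

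Other members turned above 0 in upper-quartile normalization, namely *CCNC* (0.14), *CDK8* (0.18), *CCNK* (0.0344), *CDK12* (0.0765), *CDK13* (0.0649), *CCNL2* (0.33), *CCNG1* (0.0619), *CCNG2* (0.0796), *CCNI2* (0.19), *CCNY* (0.33), *CDK17* (0.0234) and *CDK18* (0.26), and so did the ratios within BT-16 of *CCNL2* (0.0928) and *CCNY* (0.19). With library totals these were *CCNC* (0.0242), *CDK8* (0.0545), *CCNL2* (0.20), *CCNI2* (0.0627), *CCNY* (0.20, and 0.0816 within BT-16) and *CDK18* (0.14), and with the minimum of 10 counts *CDK8* (0.0107), *CCNL2* (0.16), *CCNY* (0.16) and *CDK18* (0.0941). *CCNL2* was also above 0 with DESeq2 (0.0479), its block (0.0423), its size factors (0.0479), the filter of edgeR (0.0152) and limma (0.0414), and *CCNY* with the same settings (0.0482, 0.0329, 0.0482, 0.0170 and 0.0321) and with halved counts (0.00196). *CCNI2* was above 0 with the replicate block (0.54), DESeq2 with the block (0.72) and limma (0.0396), and *CDK18* with these settings (0.18, 0.26 and 0.0741). None of these members passed the test in edgeR.

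Members with few counts (*CDK3*, *CCNA1*, *CCNI2*, *CCND2*, *CDK15*, *CCNP*) have wide errors. With 2 counts per untreated library the fitted fold of *CDK15* is uncertain, so a ratio to a floor is given beside it.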
